A study of Mus musculus with 4 samples.

Results

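The NKR-P1 receptors and their Clr ligands were followed at the transcript level in natural killer cells (NK cells) from mouse bone marrow. The 6 genes were taken by symbol from a table of 37310 genes, and each symbol had 1 row: the receptor genes Klrb1a, Klrb1b, Klrb1c and Klrb1f and the ligand genes Clec2d and Clec2i. RNA came from 2 dKO libraries, of mice with the genotype Gabpb1l-/-Gabpb2-/-, and from 2 Ctrl libraries of littermates. All mice were C57BL/6 and 6 to 8 weeks old, and the labels give neither the alleles of the Ctrl mice nor the cells in which the deletions act. The long form of Gabpb1 and Gabpb2 pair with the DNA-binding subunit GABP alpha, and the study asks what their loss changes in NK cells.

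NKR-P1 proteins are C-type lectin-like receptors on the surface of NK cells, and Clr proteins are lectin-like ligands encoded among them in the NK gene complex. NKR-P1B is inhibitory and recognises Clr-b, the product of Clec2d, which many blood cells display as a sign of self. NKR-P1F is an activating receptor that binds Clr-g, the product of Clec2i. NKR-P1C, the product of Klrb1c, is the activating receptor NK1.1, which signals through the adaptor FcR gamma, and NKR-P1A, from Klrb1a, is a close relative of it.

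The cells were sorted as CD3e-negative, NK1.1-positive and CD49b-positive, so the protein of Klrb1c was itself a gate in both groups. Its transcript was thus compared only among cells that had passed that gate.

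On GRCm38 (GENCODE release M21) all 6 genes are protein-coding and lie on chromosome 6 between 128609227 and 129186534, a span of 577.3 kb. The order along the chromosome is Klrb1a (128609227 to 128623533), Klrb1c (128778485 to 128789215) and Klrb1b (128813706 to 128826331) on the minus strand, then Clec2i (128887588 to 128898167), Klrb1f (129045901 to 129057464) and Clec2d (129180615 to 129186534) on the plus strand. These positions were found by Ensembl identifier (ENSMUSG00000030361, ENSMUSG00000030325, ENSMUSG00000079298, ENSMUSG00000030365, ENSMUSG00000030154 and ENSMUSG00000030157 in that order) and are not those of the build mm9 named in the submitters' notes. Clec2i overlaps the gene BC035044 on the opposite strand, so their reads may not be separable. Klrb1c and Klrb1b both overlap Gm44511 on their own strand, which was not analysed here, and Klrb1f overlaps Gm43992 and Gm44000 on the opposite strand.

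The promoter windows of the 4 receptor genes are shown because GABP is an Ets-family factor that binds around a GGAA core, and because these relatives can be compared base by base. Each window is RefSeq sequence of GRCm38.p6 from 250 bases before to 50 bases after the annotated start, written 5′ to 3′ on the strand of the gene. Capitals mark GGAAGT or its reverse complement ACTTCC.
Klrb1a, chr6:128622885-128623184, minus strand: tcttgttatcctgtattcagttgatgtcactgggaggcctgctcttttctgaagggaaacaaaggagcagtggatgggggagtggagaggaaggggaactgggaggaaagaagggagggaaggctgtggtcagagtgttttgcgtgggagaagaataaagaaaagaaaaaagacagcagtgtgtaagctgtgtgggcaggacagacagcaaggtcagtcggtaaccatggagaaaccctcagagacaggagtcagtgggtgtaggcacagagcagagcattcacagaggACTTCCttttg
Klrb1b, chr6:128826266-128826565, minus strand: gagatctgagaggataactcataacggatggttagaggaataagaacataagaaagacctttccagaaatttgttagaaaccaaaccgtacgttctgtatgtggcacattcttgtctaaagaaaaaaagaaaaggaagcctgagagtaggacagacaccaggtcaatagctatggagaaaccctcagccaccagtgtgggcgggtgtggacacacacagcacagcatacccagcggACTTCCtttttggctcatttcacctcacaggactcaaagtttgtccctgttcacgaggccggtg
Klrb1c, chr6:128788592-128788891, minus strand: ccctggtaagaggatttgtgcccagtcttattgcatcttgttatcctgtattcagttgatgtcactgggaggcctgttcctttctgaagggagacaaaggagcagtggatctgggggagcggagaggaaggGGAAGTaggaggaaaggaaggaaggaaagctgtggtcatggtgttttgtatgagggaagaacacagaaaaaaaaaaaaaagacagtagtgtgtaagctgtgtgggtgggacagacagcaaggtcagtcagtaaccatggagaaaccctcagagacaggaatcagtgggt
Klrb1f, chr6:129045651-129045950, plus strand: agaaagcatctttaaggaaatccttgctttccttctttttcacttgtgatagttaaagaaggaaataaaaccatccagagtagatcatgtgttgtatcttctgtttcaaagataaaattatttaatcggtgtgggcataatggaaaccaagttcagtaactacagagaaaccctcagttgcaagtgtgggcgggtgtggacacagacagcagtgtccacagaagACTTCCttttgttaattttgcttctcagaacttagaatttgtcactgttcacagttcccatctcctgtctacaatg

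Searched on both strands, GGAAGT occurred 1 time in each of the 4 receptor windows and in neither the Clec2d nor the Clec2i window, against 24.1% of 27025 promoters of all genes. The receptor windows share sequence, as given below, so these 4 are not independent of each other, and no enrichment was tested. The longer CCGGAAGT, which contains it, was in 0 of the 6 windows and in 4.0% of all promoters. CCGGAA, which lies within the longer one, was likewise in 0 of the 6, against 15.22% of all promoters. The capitals begin 39 bases after the start in Klrb1a and 14, 119 and 26 bases before it in Klrb1b, Klrb1c and Klrb1f. For Klrb1a and Klrb1c the whole window lies inside the GENCODE span given above, so the RefSeq start is downstream of the outermost GENCODE start.

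Among the windows, Klrb1a and Klrb1c were the closest pair (69.4% identity over 340 aligned columns), then Klrb1b and Klrb1f (54.3% over 339). The other 13 pairs, Clec2d and Clec2i included, had 40.2% to 48.5%. The longest run common to all 4 receptor windows was gagaaaccctcag, 13 bases long, which stands in 4 of the 27025 promoters. Klrb1b and Klrb1f also share agtgtgggcgggtgtggacaca, 22 bases just upstream of their starts.

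Gene counts summed to between 30233870 and 31469644 in the dKO libraries and between 33299226 and 34724516 in the Ctrl libraries. Gabpb2, which the genotype deletes, had 85 and 86 counts in dKO and 1244 and 1009 in Ctrl. Gabpb1 had 2609 and 2400 counts in dKO and 1945 and 1727 in Ctrl (edgeR adjusted p = 0.273; log2 fold change 0.56, SE 0.17). Counting over the whole gene cannot show whether its long form was lost. The groups also differed in Xist (2 and 9 counts in dKO, 6066 and 6430 in Ctrl). Y-linked Ddx3y had 8933 and 6757 counts in dKO and 0 in both Ctrl libraries. Eif2s3y, Kdm5d and Uty, also Y-linked, had counts in dKO only. By these transcripts the dKO libraries look male and the Ctrl libraries female, so genotype and sex cannot be told apart in any comparison here. Reads outside any annotated gene made up 23.8% and 24.3% of counted reads in dKO and 18.1% and 21.5% in Ctrl, and 19450 and 19220 genes were detected in dKO, against 15921 and 18206 in Ctrl. Both measures differed between the groups, as Klrb1c did. Within each group, the library with more reads outside genes had the higher Klrb1c CPM. The library with more detected genes had the higher Klrb1c CPM within Ctrl and the lower within dKO. The part of either measure in the Klrb1c values was not tested. Nothing in the labels says whether replicate libraries came from separate mice or litters beyond calling them biological replicates. In bulk RNA, fewer cells that express a gene and less RNA per cell cannot be told apart.

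None of the 6 genes passed the test between dKO and Ctrl (edgeR quasi-likelihood test, adjusted p under 0.05 over 13904 tested genes). Of all tested genes 85 passed, 0.611%, and 187 passed without Ctrl replicate 2. At an unadjusted p under 0.05 the count was 0 of the 6 as well, against 10.6% of all tested genes, and DESeq2 and limma-voom also gave 0 of 6. In 4 of the 6 genes the log2 fold change (dKO minus Ctrl) was negative and in 2 it was positive, with a median of -0.17, beside 0.01 over all tested genes. Groups did not overlap in 1 gene, Klrb1c, against 41.6% of all tested genes. The 95% interval of the log2 fold change lay within -1 and 1 for 5 of the 6, all but Clec2d, so a change of 2-fold or more lies outside it for those genes.

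**Figure D1:**
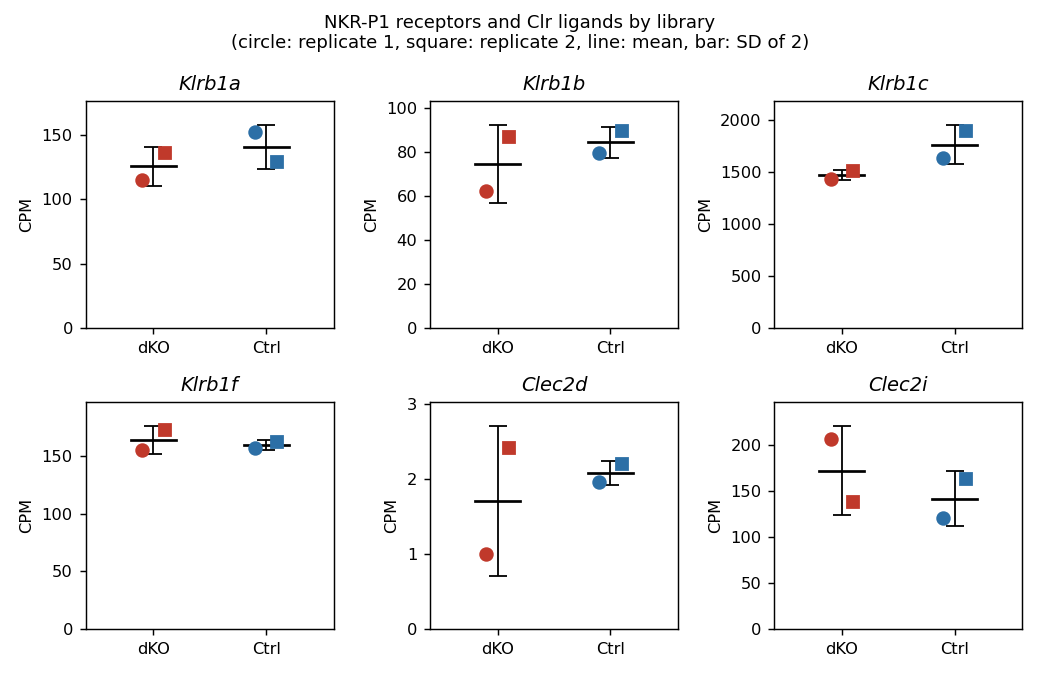
CPM, counts scaled by TMM library size, of each gene in the 2 dKO and 2 Ctrl libraries, with the mean and SD of each group (n = 2). The libraries of both groups interleave for every gene except Klrb1c, where both dKO points (1438 and 1510 CPM) sit below both Ctrl points (1631 and 1896 CPM).

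Levels within a gene are given in CPM, counts scaled to a common library size. Among the activating receptors, Klrb1c had 1438 and 1510 CPM in the dKO libraries, against 1631 and 1896 CPM in the Ctrl libraries. Both dKO libraries were lower than both Ctrl libraries, as in 19.9% of all tested genes. The group means were 1474 ± 50.8 CPM in dKO and 1763 ± 188 CPM in Ctrl (SD, n = 2 each). The log2 fold change was -0.26 (SE 0.15, 95% interval -0.61 to 0.09, edgeR adjusted p = 0.627), so on the fold scale the interval runs from 0.657 to 1.06. Per length the gap was narrow, with 1386 and 1345 TPM (a level scaled by transcript length and library size) in dKO, against 1396 and 1765 TPM in Ctrl.

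Klrb1a, the closest relative of NK1.1 here, had 114.9 and 136.0 CPM in dKO and 152.5 and 128.6 CPM in Ctrl. The dKO 2 library was above Ctrl 2, so the groups overlapped. Its log2 fold change was -0.16 (SE 0.17, 95% interval -0.56 to 0.23, edgeR adjusted p = 0.819).

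Klrb1f, the gene of a receptor for Clr-g, had the smallest absolute log2 fold change of the 6. It had 155.0 and 172.4 CPM in dKO and 156.8 and 162.4 CPM in Ctrl. The 2 Ctrl libraries fell between the 2 dKO libraries. Its log2 fold change was 0.04 (SE 0.15, 95% interval -0.31 to 0.39, edgeR adjusted p = 0.968), and without dKO replicate 2 it was -0.044. On the fold scale its interval runs from 0.805 to 1.31.

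The inhibitory receptor gene Klrb1b had 62.1 and 87.0 CPM in dKO, against 79.5 and 89.3 CPM in Ctrl. Only dKO 1 was below the Ctrl range, and dKO 2 lay inside it. The log2 fold change was -0.18 (SE 0.21, 95% interval -0.65 to 0.29, edgeR adjusted p = 0.841), and it turned to 0.044 without dKO replicate 1.

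Of the ligand genes, Clec2i had 207.0 and 138.3 CPM in dKO and 120.6 and 163.0 CPM in Ctrl. The highest library was dKO 1 and the lowest Ctrl 1, while dKO 2 was below Ctrl 2. The log2 fold change was 0.28 (SE 0.23, 95% interval -0.25 to 0.82, edgeR adjusted p = 0.754). It was -0.036 without dKO replicate 1, so the positive value rests on that library. BC035044, the gene on the opposite strand, averaged 72.0 CPM in dKO and 71.5 CPM in Ctrl (log2 fold change 0.01, edgeR adjusted p = 0.994).

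Clec2d, the gene of the widely displayed ligand Clr-b, was barely detected, with 32 and 73 raw counts in dKO, against 67 and 73 in Ctrl. In CPM this is 0.996 and 2.42 in dKO and 1.97 and 2.20 in Ctrl, and the Ctrl libraries lie between the dKO libraries. Its log2 fold change of -0.29 (SE 0.60, 95% interval -1.68 to 1.10, edgeR adjusted p = 0.923) leaves changes of 2-fold in either direction inside its interval. It turned to 0.21 without dKO replicate 1 and to 0.057 with the RSEM expected counts. Those expected counts of Clec2d were 16 (exact 95% Poisson interval 9.15 to 25.98) and 30 (20.24 to 42.83) in dKO and 24 (15.38 to 35.71) and 25 (16.18 to 36.9) in Ctrl, where the intervals cover counting error only.

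**Figure D2:**
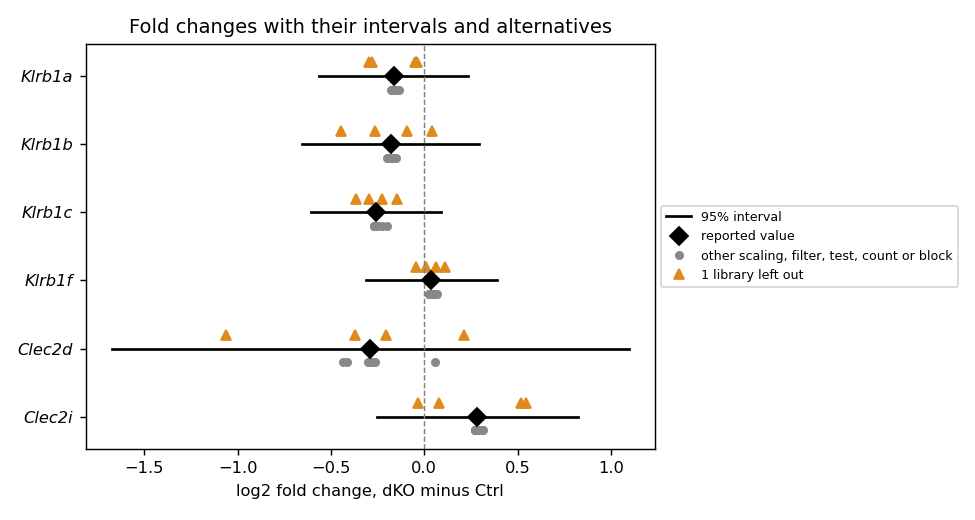
Log2 fold change (dKO minus Ctrl) of each gene, with its 95% interval as a line, the values under other processing as grey circles and the values with 1 library left out as orange triangles. All 6 intervals include 0, Klrb1a and Klrb1c stay negative in every setting plotted, and the widest line belongs to Clec2d (-1.68 to 1.10).

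Levels between genes were compared per length, in TPM. Klrb1c stood far above the rest, at 1365 ± 29.4 TPM in dKO and 1580 ± 261 TPM in Ctrl (SD, n = 2 each), the 91st and 80th highest of all genes in the table. Klrb1a followed with 206 ± 8.03 TPM in dKO and 229 ± 14.1 TPM in Ctrl. Klrb1f had 157 ± 1.83 TPM in dKO and 152 ± 8.51 TPM in Ctrl, and Clec2i 138 ± 44.1 TPM in dKO and 127 ± 21.6 TPM in Ctrl. Klrb1b was lower at 59.5 ± 9.17 TPM in dKO and 68.3 ± 7.28 TPM in Ctrl, and Clec2d stood last at 2.44 ± 0.933 TPM in dKO and 2.40 ± 0.205 TPM in Ctrl. This order of the means was the same in both groups. Neighbours in it did not overlap between genes within either group, except Klrb1f and Clec2i in dKO (155 and 158 TPM of Klrb1f, 169 and 106 TPM of Clec2i).

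**Figure D3:**
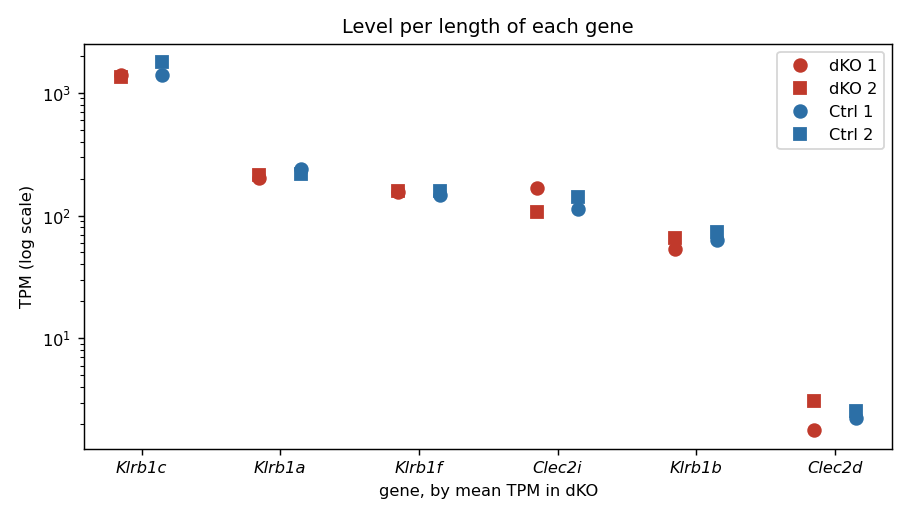
TPM of the 6 genes on a log scale in each dKO and Ctrl library, ordered by the dKO mean. Klrb1c is at the top (1345 to 1765 TPM), 4 genes lie between 53.0 and 239 TPM, and Clec2d lies between 1.78 and 3.10 TPM.

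The 4 receptor genes summed to 1795 and 1780 TPM in dKO and 1844 and 2215 TPM in Ctrl. Klrb1c made up 77.2% and 75.5% of that sum in dKO and 75.7% and 79.7% in Ctrl, so the groups overlapped. Klrb1a took 11.2% and 11.9% in dKO, against 12.9% and 9.87% in Ctrl. Inhibitory Klrb1b accounted for 2.95% and 3.71% in dKO and 3.43% and 3.32% in Ctrl. Klrb1f was the only receptor gene whose share did not overlap between groups, at 8.65% and 8.87% in dKO and 7.93% and 7.14% in Ctrl. These shares are tied to each other, since the sum is mostly Klrb1c. With 2 libraries a group the smallest two-sided p of an exact permutation test is 0.333, and no test was made on them.

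Ligand and receptor transcripts of each pair were set side by side within the same libraries. Clec2i divided by Klrb1f, the gene of a receptor for Clr-g, was 1.09 and 0.674 in dKO and 0.766 and 0.901 in Ctrl, in TPM. These ratios were about level and overlapped between groups. For Clec2d and its receptor gene Klrb1b the ratio was 0.0336 and 0.0470 in dKO and 0.0356 and 0.0346 in Ctrl, and which group had the higher mean turned when counts per length were used in place of TPM. Clec2i was the more abundant of the 2 Clr transcripts, 94.8 and 34.3 times Clec2d in dKO and 49.8 and 56.1 times in Ctrl, in TPM.

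The deposited tables also give a mean transcript length per gene, which RSEM weights by the abundance of each transcript. For Clec2i it was 2052 and 1970 bases in dKO, against 1704 and 1877 bases in Ctrl, so both dKO libraries had the longer mean. The ratio of the group means was 0.17 on the log2 scale. Of 9375 genes with more than 50 expected counts in every library, 6.14% moved at least this far in either direction, and in 24.5% the lengths of the groups did not overlap. The median move over these genes was 0.009. Klrb1a moved by 0.0099, Klrb1b by 0.0050, Klrb1c by 0.0032 and Klrb1f by 0.0011 in absolute log2 units, and Clec2d has a single transcript of 1213 bases. Gene tables do not say which Clec2i transcripts differ, and reads of BC035044 on the other strand may enter the estimate. The larger CPM difference of Clec2i (172.7 ± 48.6 in dKO, 141.8 ± 30.04 in Ctrl) beside the smaller TPM difference above includes this longer mean length.

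**Figure D4:**
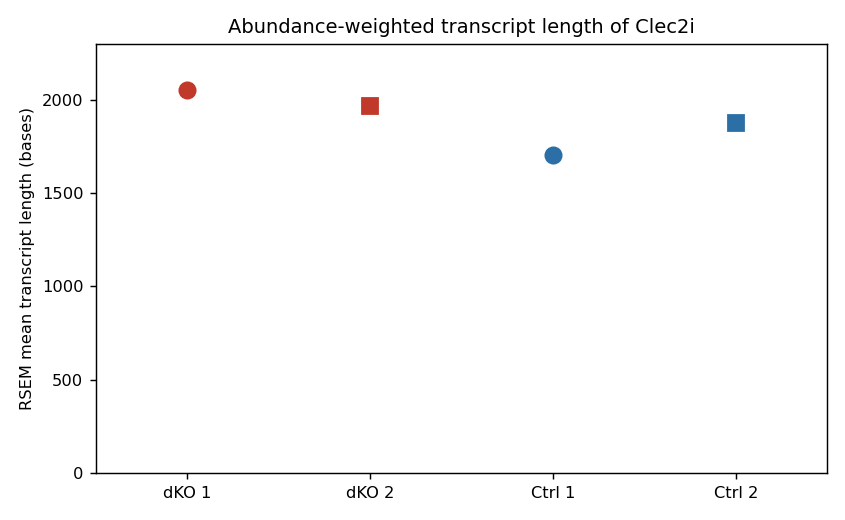
Mean transcript length of Clec2i in bases, weighted by transcript abundance in the deposited RSEM tables, for each dKO and Ctrl library. Both dKO points (2052 and 1970 bases) lie above both Ctrl points (1704 and 1877 bases).

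Shared sequence between these relatives could blur the counts, so it was measured on GENCODE transcripts. Stretches of 50 bases that also occur in another gene of the deposited table made up 9.92% of those of Klrb1a, 5.99% of Klrb1c, 5.77% of Klrb1b, 4.13% of Clec2i, 1.98% of Clec2d and 0% of Klrb1f. At 100 bases the highest such share was 0.50%, in Klrb1a. Over all GENCODE genes it was 22.3% for Klrb1b and 10.81% for Klrb1c at 100 bases, mostly stretches in common with Gm44511. Dividing each whole-number count by the expected count that RSEM gave, a ratio whose median over genes lies between 2.05 and 2.07 in these libraries, gave 1.96 to 2.03 for Klrb1c, 2.00 to 2.07 for Klrb1b and 2.05 to 2.13 for Klrb1a. It was 2.21 to 2.31 for Klrb1f and 2.22 to 2.27 for Clec2i. Clec2d, with few reads, ranged from 2.00 to 2.92.

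Of 12 further listed NKR-P1 and Clr symbols, 8 had a row in the table, and 2 of these genes passed the filter on low counts. Whether a symbol without a row is another name of a gene in the table was not checked. Klrb1 had 11.7 and 12.7 CPM in dKO and 13.1 and 13.3 CPM in Ctrl (log2 fold change -0.11, SE 0.25, edgeR adjusted p = 0.930). Cd69, an early activation marker of lymphocytes from the same gene cluster, had 64.4 and 55.7 CPM in dKO and 74.9 and 92.4 CPM in Ctrl (log2 fold change -0.48, SE 0.19, edgeR adjusted p = 0.417). Both had lower values in both dKO libraries, as in 19.9% of all tested genes, and neither passed. For Klrb1 the gap was small, from 12.7 CPM in dKO 2 to 13.1 CPM in Ctrl 1. At an unadjusted p under 0.05 the count was 1 of 2, and DESeq2 and limma-voom called 0. The remaining 6, Klrb1-ps1, Clec2e, Clec2g, Clec2h, Clec2j and Clec2l, had at most 9 counts in any library.

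Around the members, 10 further tested genes lay within the span or 200 kb beyond it. None passed with edgeR, 2 had an unadjusted p under 0.05, DESeq2 called 1 and limma-voom 0, and the log2 fold change was below 0 in 5 of the 10 (median -0.05). The one called by DESeq2 was BC064078, a transcribed pseudogene next to Klrb1f, with 34.9 and 37.1 CPM in dKO, against 20.7 and 18.6 CPM in Ctrl (log2 fold change 0.87, SE 0.21, edgeR adjusted p = 0.151, DESeq2 adjusted p = 0.0239). Its groups did not overlap, while those of Klrb1f did. Cd69 was the other of the 2.

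**Figure D5:**
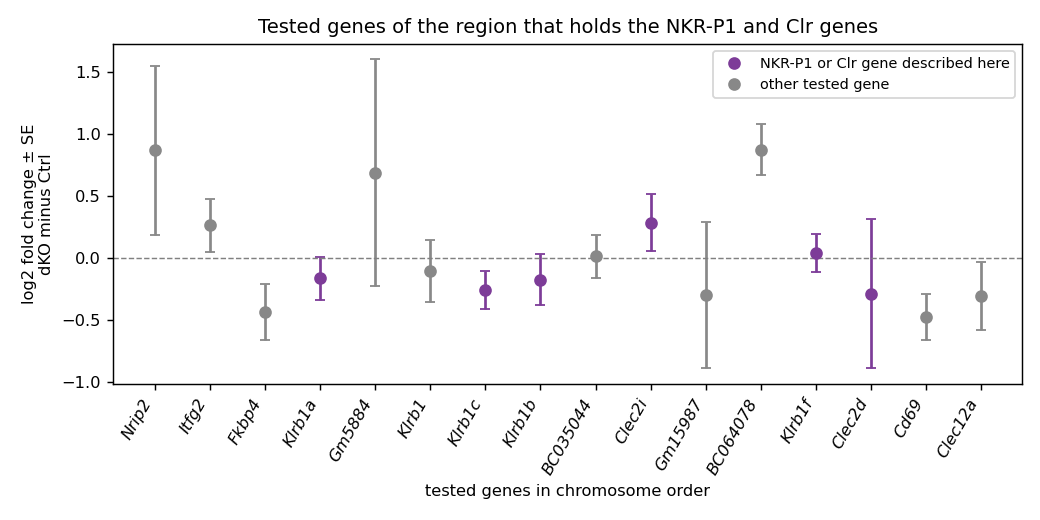
Log2 fold change (dKO minus Ctrl) ± SE of the 16 tested genes in and around the span, in chromosome order, with the NKR-P1 and Clr genes described here in purple. BC064078 is highest (0.871, SE 0.205), with Nrip2 close below it (0.867, SE 0.685), and the purple points lie between -0.29 and 0.28.

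Genes that carry NKR-P1 signals also gave no call among 17 tested (edgeR), with 4 at an unadjusted p under 0.05 and 0 by DESeq2 or limma-voom. Their median log2 fold change was -0.10, with 6 positive and 11 negative. Groups did not overlap in 9 of them, 2 higher in dKO and 7 lower, where the shares over all tested genes were 21.7% and 19.9%. Plcg2, a phospholipase downstream of activating receptors, had 151.1 and 134.0 CPM in dKO and 198.2 and 210.6 CPM in Ctrl (log2 fold change -0.52, SE 0.15, edgeR adjusted p = 0.261). Zap70, a kinase recruited to phosphorylated adaptors, had 227.7 and 221.4 CPM in dKO and 305.8 and 292.0 CPM in Ctrl (log2 fold change -0.41, SE 0.14, edgeR adjusted p = 0.353).

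Direct partners of the receptors were named for their role after their values were seen. Fcer1g, the FcR gamma adaptor of NKR-P1C, had 261.3 and 326.0 CPM in dKO and 331.5 and 313.9 CPM in Ctrl (log2 fold change -0.14, SE 0.16, edgeR adjusted p = 0.852). Ptpn6, the phosphatase SHP-1 that inhibitory receptors such as NKR-P1B recruit, had 248.7 and 232.4 CPM in dKO and 303.2 and 258.6 CPM in Ctrl (log2 fold change -0.22, SE 0.16, edgeR adjusted p = 0.698). Fcer1g overlapped between groups, and Ptpn6 was lower in both dKO libraries, as in 19.9% of all tested genes.

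Markers of NK identity were present in every library, and all 14 listed genes were tested. Their summed level was 16764 and 16782 CPM in dKO, against 20449 and 19738 CPM in Ctrl. This sum includes Klrb1c itself and was lower in both dKO libraries. None of the 14 passed with edgeR, 3 had an unadjusted p under 0.05, DESeq2 called 1 (Gzma) and limma-voom 0. Gzma, which encodes granzyme A, had 821.9 and 1089 CPM in dKO and 2074 and 1469 CPM in Ctrl (log2 fold change -0.89, SE 0.21, edgeR adjusted p = 0.160). Prf1, which encodes perforin, had 1211 and 1189 CPM in dKO and 1688 and 1723 CPM in Ctrl (log2 fold change -0.51, SE 0.14, edgeR adjusted p = 0.224). Over the list the median log2 fold change was -0.20, with 11 negative and 3 positive (0.01 for Klrk1, 0.03 for Klrd1 and 0.16 for Eomes). That of Klrb1c, which is 1 of the listed genes, was -0.26. Groups did not overlap in 7 of the 14, all lower in dKO, where the share over all tested genes was 19.9%.

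Transcripts listed as markers of cells outside the NK lineage were found in all libraries. No listed marker with a row was at 0 in every library, but some were at 0 in part of them, such as Clec9a in both Ctrl libraries. Whether these transcripts came from such cells or from the NK cells was not tested. T cell markers summed to 804 and 713 CPM in dKO, against 988 and 902 CPM in Ctrl. Of 12 tested, 9 were lower in both dKO libraries than in both Ctrl libraries (19.9% of all genes tested were), 7 had an unadjusted p under 0.05, DESeq2 called 7 and limma-voom 4, and 2 fell with edgeR: Cd3e, to 10.6 ± 2.37 CPM in dKO against 49.99 ± 3.53 CPM in Ctrl, and Trac, to 17.5 ± 4.57 CPM in dKO against 65.7 ± 10.6 CPM in Ctrl. The sum is mostly Trbc1 and Trbc2, with log2 fold changes of 0.22 and -0.37 (edgeR adjusted p = 0.817 and 0.538). Cd3d had -1.49, Cd3g -1.50, Cd5 -2.79 and Cd6 -2.78 (edgeR adjusted p = 0.0564, 0.126, 0.0662 and 0.100). Cd3d, Cd3g, Cd5 and Cd6 were picked out after their values were seen. By sign the list split into 10 negative and 2 positive, the latter being Trbc1 and Bcl11b (0.42, edgeR adjusted p = 0.694). Cd4 was at -0.65 (edgeR adjusted p = 0.791), and both Bcl11b and Cd4 overlapped between groups. Markers of other group 1 innate lymphoid cells summed to 206 and 217 CPM in dKO, against 329 and 358 CPM in Ctrl, with 0 of 8 passing (edgeR; 4 at an unadjusted p under 0.05, 1 by DESeq2). The 4 tested platelet markers gave no call (edgeR; 2 at an unadjusted p under 0.05, 1 by DESeq2), and the list summed to 8.18 and 7.41 CPM in dKO and 13.6 and 17.3 CPM in Ctrl. These 3 sums, like Klrb1c, were lower in both dKO libraries, and their part in its values was not tested. The sums for B lineage cells, neutrophils and their precursors, monocytes and macrophages, dendritic cells, basophils and mast cells, and erythroid cells overlapped between the groups. In these 6 lists 0 of 54 tested markers passed with edgeR, and 9 had an unadjusted p under 0.05. DESeq2 called 3, all lower in dKO, 1 each in the lists of B lineage cells, neutrophils and monocytes.

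Of the 6 genes, Klrb1c had the smallest unadjusted p (0.125), and the genes most like it were taken by the distance between log2 CPM profiles centred over the 4 libraries. Among 8163 other genes that averaged 10 CPM or more, Man2a1 (distance 0.0063 log2 units), Vps18 (0.033) and Slc35b2 (0.043) were nearest. Man2a1 had 15.7 and 16.5 CPM in dKO and 18.0 and 20.9 CPM in Ctrl (log2 fold change -0.27, SE 0.23). A profile over 4 libraries is short, and likeness is given only as a description.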

How the data were processed

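RNA was measured in 2 dKO and 2 Ctrl libraries made by the Smart-seq2 protocol, per the labels. The submitters' processing notes list, without roles, TopHat2 2.1.1, HTSeq 0.6.1, RSEM 1.3.0, Trimmomatic 0.36, FastQC 0.11.5, DESeq2 1.32.0 and the build mm9. The annotation release, the strand setting and other parameters were not given in the sources used here. The authors deposited a table of whole-number counts for each library and, per the file headers, RSEM tables with expected counts, TPM, FPKM and lengths. Expected counts deposited by the authors were rounded to whole numbers for 1 alternative. The TPM and FPKM values that the authors deposited entered no test. Counts were about 2 times the expected counts, and a common factor cancels in fold changes. Counting error may be larger than the whole-number counts imply, which bears on genes with few reads such as Clec2d. Rows that name no gene (of all counted reads, 23.8% and 24.3% in dKO and 18.1% and 21.5% in Ctrl in no gene, and 2.23% and 2.20% in dKO and 2.34% and 2.22% in Ctrl ambiguous) were left out.

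Counts were tested across all genes with edgeR 4.0.16 and its quasi-likelihood F test (R 4.3.3, TMM scaling, robust fit, expression filter with a minimum count of 10), adjusted by Benjamini-Hochberg over 13904 genes at 0.05. SE is the absolute log2 fold change over the square root of F. CPM uses TMM library sizes. The procedure was run on simulated counts, with planted changes larger than those of the 6 members and in genes above the level of Clec2d. That run therefore does not speak to changes as small as those of the members. Alternatives were other scalings and filters, DESeq2 1.42.0, limma-voom (limma 3.58.1), a fit that is not robust, RSEM counts, the replicate number as a block and each library left out. Named genes were the 6 members, up to 4 passing genes of a list or else its 2 with the smallest p, all detected further NKR-P1 and Clr genes, and 3 genes nearest to 1 member. The members and lists were chosen with earlier results of these data known. Promoters are RefSeq sequences, found for 6 of 6 genes.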

Additional observations from a re-analysis of the deposited data

How the results depend on the processing

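None of the 6 genes passed in any of 15 other settings each (scalings, filters, tools, RSEM counts, the replicate block and each library left out), where the smallest adjusted p was 0.387. Klrb1a (-0.29 to -0.039) and Klrb1c (-0.37 to -0.15) kept a negative log2 fold change throughout. With 1 library left out the others ranged from -0.44 to 0.044 for Klrb1b, from -0.044 to 0.11 for Klrb1f, from -1.06 to 0.21 for Clec2d and from -0.036 to 0.54 for Clec2i. Clec2d was 0.057 with the RSEM counts. The cause was not tested. Over the whole table, 85 genes became 559 without the filter on low counts, 396 with DESeq2 and between 73 and 187 with 1 library left out, the highest without Ctrl replicate 2. With the replicate number as a block 100 genes passed and Klrb1c had -0.26. Libraries of the same number share only a number. They deviated oppositely (r = -0.23 across 8164 genes), and a crossed pairing, added after seeing the data, gave 156 calls. From whole-number counts per length, the mean share of Klrb1f was 9.76% in dKO and 8.21% in Ctrl, and that of Klrb1c 74.9% in dKO. In the same unit the mean log2 ratio of Clec2d to Klrb1b was -4.55 in dKO and -4.33 in Ctrl, against -4.65 in dKO and -4.83 in Ctrl in TPM, so the order of the groups turned.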
